A study of Mus musculus with 6 samples.

Results

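Germinal centre B cells that carried IgG1 were compared with those that still carried IgM, within the same libraries, at day 14 after immunisation of mice with NP-haptenated antigen in alum. Members were chosen by measured UMI counts. Each cell was assigned to the heavy-chain constant gene with the most unique molecular identifiers (UMIs, distinct RNA molecules) among Ighm, Ighd, Ighg1, Ighg2b, Ighg2c, Ighg3, Igha and Ighe. Ties were left out, and at least 2 UMIs of the leading gene were required. By this rule 4873 cells were IgG1 cells and 19294 were IgM cells, 24167 of the 35109 cells in 4 libraries.

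Day14 replicates 1 and 2 came from wild type mice. Chimaera_control came from irradiated Il4ra+/+ hosts and Chimaera_KO from irradiated Ccl19Cre/+ Il4raf/f hosts, both given wild type marrow. The Cre is driven by Ccl19, a stromal gene, so the floxed IL-4 receptor gene lies in cells of the host, and marrow-derived B cells were wild type in both chimaeras. All cells were spleen cells sorted as B220+ CD95hi GL7hi IgD- and sequenced from the 5′ end of the transcript in droplets. Nothing in the labels says that the libraries came from separate animals, so p-values measure only the spread between these libraries. The 2 Day7 libraries, whose table lists no immunoglobulin genes, were not used.

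In class switch recombination DNA breaks replace the IgM constant region with a downstream one while the antigen-binding part of the antibody stays. IL-4 acting through STAT6 directs mouse B cells to IgG1 and IgE, and interferon gamma with T-bet directs them to IgG2c. Germinal centre cells cycle between a dark zone, where they divide and mutate, and a light zone, where they are selected. Some leave as memory or plasma cells, and memory cells arise from IgM and from switched precursors.

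IL-4 responses enter the comparison because IL-4 directs the switch to IgG1 and because its receptor was deleted in the KO hosts. Fcer2a (chr8:3681737-3694175, minus strand, GRCm38) is the gene of CD23, a receptor for IgE that IL-4 induces. Among 11199 genes its IgG1 to IgM difference had the smallest p for differing between the 2 experiments. The 250 bases before one of its 3 annotated start sites are shown because they hold a STAT6-type motif (chr8:3690862-3691111, GRCm38.p6, minus strand, from RefSeq). Capitals mark the motif TTCNNNNGAA, which is its own reverse complement, so 1 search covers both strands.

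Fcer2a: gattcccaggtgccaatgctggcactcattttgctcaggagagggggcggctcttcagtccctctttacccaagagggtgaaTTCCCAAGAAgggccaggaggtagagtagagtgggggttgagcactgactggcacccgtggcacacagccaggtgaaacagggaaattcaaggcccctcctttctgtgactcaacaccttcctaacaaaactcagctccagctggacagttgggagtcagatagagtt

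The match TTCCCAAGAA starts 168 bases before the start site. Of 32851 promoter windows of 300 bases, 6.95% held such a match. Among the Fcer2a windows it was found in 1 of 3, and the window of Il4i1, another IL-4 response gene, held none. A match describes letters and not binding.

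IgG1 and IgM cells made up different parts of the 4 libraries. The IgG1 cells numbered 1067 and 706 in Day14 replicates 1 and 2, 1567 in Chimaera_control and 1533 in Chimaera_KO. The IgM cells numbered 5440, 5494, 4198 and 4162 in the same order. IgG1 cells were 16.4% and 11.4% of both classes together in the Day14 libraries. In the chimaeras they were 27.2% (exact Clopper-Pearson 95% interval 26.04 to 28.35) for the control and 26.9% (25.8 to 28.1) for the KO, so the chimaera intervals overlapped. These intervals cover counting error only. Because the rule used these counts, no test was made.

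The remaining cells were accounted for as follows. Plasma-type clusters (Day14 clusters 8 and 9, chimaera cluster 7) held 765 cells that were set aside. Of the 34344 others, 4382 had fewer than 2 UMIs of every constant gene and 779 were tied. Ighg2b led in 1936 cells, Ighg2c in 1427 and Ighg3 in 1360, and these 4723 cells are called other IgG below. Ighd led in 97 cells, Igha in 150 and Ighe in 46. Just inside the rule, with exactly 2 UMIs of the leading gene, were 597 IgG1 and 1328 IgM cells, and just outside it were 3094 cells with exactly 1. No constant gene had a UMI in 1288 cells.

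Depth and mixing differed between experiments. Median UMIs per IgG1 cell were 3778 and 3422 in the Day14 libraries, 5986 in Chimaera_control and 6660 in Chimaera_KO, against 3624, 3509, 7170 and 7928 per IgM cell. At least 1 Ighg1 UMI was found in 8.92% and 4.71% of Day14 IgM cells, but in 29.8% of control and 35.9% of KO chimaera IgM cells. Among cells led by Ighg2b or Ighg2c, which have lost Ighg1 from the expressed allele, the shares were 9.13% and 4.48% in the Day14 libraries, 19.3% for the control and 22.6% for the KO. The Day14 IgM shares were thus close to this background, and the chimaera IgM shares lay above it. Those cells had median depths of 4034, 3879, 7462 and 7353 UMIs. Between 29.5% and 46.4% of the IgG1 cells of a library held an Ighm UMI. A stricter assignment kept cells whose leading gene had at least 10 UMIs and at least 90% of the constant-region UMIs. In the same order of libraries, 204, 101, 134 and 131 IgG1 cells and 1982, 1973, 1198 and 1132 IgM cells were kept. The leading gene had a median of 5 or 6 UMIs in IgG1 cells and 8 or 9 in IgM cells, so a smaller part of the IgG1 cells was kept. Under this assignment 22 of the 24 genes named below differed by more between the classes than under the main rule. Between 90 and 135 cell barcodes were shared by each pair of libraries.

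Both classes expressed germinal centre B cell genes. Levels per gene are given in CPM, UMI counts scaled to the non-immunoglobulin UMIs, in the sum of all IgG1 or all IgM cells of a library. Such a sum cannot tell fewer expressing cells from less RNA per cell. For Bcl6, the master repressor of the germinal centre state, the lowest of the 4 IgG1 sums was 41.9 CPM and the lowest IgM sum was 36.1 CPM.

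The central comparison asked which other genes differ between IgG1 and IgM cells of the same library. Of 11199 genes tested with edgeR's quasi-likelihood test, 355 were higher in IgG1 cells (3.17%) and 612 were lower (5.46%), 8.63% in either direction, at a Benjamini-Hochberg adjusted p under 0.05. Of the higher genes 347 were higher in 4 of 4 libraries, and of the lower genes 569 were lower in 4 of 4. The genes with the largest differences that met the naming rule included Slpi, Nrgn and Parm1 on the IgG1 side. On the IgM side they included Csf2rb, Plac8, Cd38 and Cd72. The naming rule required the same sign in every library, so such agreement in a named gene is no separate result. With no library block in the model, no gene passed.

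Slpi (chr2:164354070-164389095), a secreted serine protease inhibitor, was measured at 67.2 and 51.9 CPM in the IgG1 cells of Day14 replicates 1 and 2, 293 in Chimaera_control and 310 in Chimaera_KO. In the IgM cells it was at 16.8, 15.0, 97.7 and 118 CPM. Every library had the higher value in its IgG1 cells, although the chimaera IgM cells lay above the Day14 IgG1 cells. The fitted difference (IgG1 minus IgM) was 1.58 ± 0.07 on the log2 scale (SE, adjusted p = 5.21e-09).

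Nrgn, which encodes the calmodulin-binding protein neurogranin, was at 28.5, 31.3, 18.4 and 9.37 CPM in IgG1 cells and at 3.95, 5.15, 6.81 and 4.32 CPM in IgM cells, in the same order of libraries. No IgM value reached the lowest IgG1 value. The difference was 1.87 ± 0.22 on the log2 scale (SE, adjusted p = 5.17e-05). Parm1, a mucin-like membrane protein gene, was at 38.7, 39.6, 42.5 and 36.8 CPM in IgG1 cells. Its IgM values were 5.31, 6.13, 16.8 and 18.3 CPM, so the groups did not overlap, and the IgM values of the chimaeras were the higher ones. The Parm1 difference was 1.60 ± 0.21 (SE, adjusted p = 0.000162).

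Lmo2, which encodes a LIM-only adaptor of transcription complexes and is a germinal centre gene, was at 70.6, 73.5, 102 and 89.9 CPM in IgG1 cells and at 37.8, 33.8, 57.2 and 54.4 CPM in IgM cells. The difference was 0.83 ± 0.06 (SE, adjusted p = 3.12e-07), and the groups did not overlap. Tox, an HMG-box nuclear factor gene, was at 87.9, 104, 45.7 and 37.9 CPM in IgG1 cells and at 45.1, 44.2, 26.3 and 22.0 CPM in IgM cells, a difference of 0.92 ± 0.07. Also named on this side were the quinone reductase gene Cryz (0.99), the Arf regulator Adap1 (0.98) and the membrane protein gene Emp2 (0.97). Irak1bp1 (0.91), whose product binds the kinase IRAK1, was named too. The phospholipid flippase gene Atp11a (0.69), Sh3bgrl2 (0.68) and the lipid phosphatase gene Plpp1 (0.67) completed the side.

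Plac8 (chr5:100553725-100572245), a small cysteine-rich protein gene found in memory precursors, was at 12.2, 5.40, 41.0 and 31.1 CPM in IgG1 cells and at 27.4, 18.7, 171 and 114 CPM in IgM cells. Each library was lower in its IgG1 cells, and the chimaeras had the higher levels in both classes. The difference was -1.92 ± 0.08 (SE, adjusted p = 5.21e-09). It was -1.08 by limma when each cluster had the same weight in IgG1 and IgM cells, its share of both classes together. That fit averaged library log2 ratios with 1 CPM added to both levels, so -1.08 is not on the measure of -1.92. Without cluster weights those ratios were -1.10, -1.62, -2.03 and -1.84, in the same order of libraries. The edgeR difference was -1.09 without the memory-precursor-like clusters described below, and -3.31 under the stricter assignment.

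Cd38 (chr5:43868553-43912375), a surface enzyme that mouse germinal centre cells lower and memory cells regain, was at 10.2, 9.01, 13.4 and 9.20 CPM in IgG1 cells and at 32.8, 29.6, 40.8 and 22.1 CPM in IgM cells. The groups did not overlap, and the difference was -1.54 ± 0.08 (SE, adjusted p = 4.24e-08). Cd72 (chr4:43446462-43454628), an inhibitory co-receptor of the B cell receptor, was at 53.2, 56.6, 67.0 and 44.7 CPM in IgG1 cells and at 190, 192, 169 and 97.9 CPM in IgM cells. The groups did not overlap, and the difference was -1.47 ± 0.08 (SE, adjusted p = 4.60e-08).

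Csf2rb, the shared beta chain of the GM-CSF, IL-3 and IL-5 receptors, had the largest fitted difference of the named genes, -2.29 ± 0.16 (SE, adjusted p = 4.97e-07). It was at 3.78, 7.57, 1.10 and 1.27 CPM in IgG1 cells and at 26.4, 30.0, 6.02 and 4.12 CPM in IgM cells. Its chimaera IgM values lay below 1 of the Day14 IgG1 values, so the groups overlapped across experiments although each library showed the same direction. Other named genes on the IgM side were Arhgap24 (-1.66), which encodes a GTPase-activating protein, Matk (-1.49), a kinase that restrains Src kinases, the receptor phosphatase gene Ptprj (-1.39) and Lmo4 (-1.32), a relative of Lmo2. The rest were the actin-binding Marcks (-1.28), the ciliary gene Evc (-1.28), the Notch target Hes5 (-1.27) and Zeb2 (-1.25), a repressor gene.

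Gene lists were described by their members, beside the median of all tested genes, which was -0.003 on the log2 scale. The memory-associated list stood lowest among the B cell lists. Of its 18 members 11 passed the test as lower in IgG1 cells and 0 as higher, with a median of -0.52. Besides Cd38 these included Ccr6, a chemokine receptor of memory precursors (-1.08 ± 0.11, SE), and the oxysterol receptor Gpr183 (-0.76 ± 0.10). The survival gene Bcl2 (-0.84 ± 0.14) and the egress receptor S1pr1 (-0.69 ± 0.09) also passed. Hhex, a transcription factor needed for memory cells, did not (-0.03 ± 0.12, adjusted p = 0.936).

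Ccr6 was at 4.90, 1.08, 17.5 and 10.4 CPM in IgG1 cells and at 5.54, 2.83, 40.8 and 20.6 CPM in IgM cells. It was lower in the IgG1 cells of each library, by the least in Day14 replicate 1. Without the memory-precursor-like clusters described below, 8 of 18 members were lower and 0 higher. In the Day14 libraries alone 7 were lower and 2 higher, beside 734 lower and 568 higher over all genes. In the chimaeras alone 13 were lower and 0 higher, beside 783 and 506 over all genes. With the same cluster weights in both classes (limma), 2 of 17 tested members were lower (Cd38 and Nt5e) and 2 were higher (Itgb7 and Hhex). The median was -0.08. The 1 CPM added in that fit draws ratios of low genes towards 0, so this median is not on the measure of the edgeR medians.

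Receptors for trafficking and naive follicular genes lay on the same side. Of 15 tested trafficking genes 8 were lower, among them Ccr7 and S1pr4, and 1 was higher. That gene, S1pr2, encodes the receptor that confines cells to the germinal centre and was higher by 0.18 ± 0.04. Of 10 naive follicular genes 6 were lower and 0 higher, with a median of -0.34. Foxp1, a repressor gene of the naive state, was at 156, 148, 111 and 110 CPM in IgG1 cells and at 368, 360, 182 and 177 CPM in IgM cells, without overlap. Its difference was -0.96 ± 0.08 (SE, adjusted p = 1.81e-06). Klf2 and Ccr7 belong to more than 1 of these lists. With the same cluster weights in both classes the trafficking list had 2 members higher and 1 lower, and the naive list 1 higher and 3 lower.

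Signalling genes below the B cell receptor differed in both directions. Of 22 members 4 were higher, namely Inpp5d (0.30 ± 0.04, SE), Cd22 (0.19 ± 0.04), Plcg2 (0.15 ± 0.04) and Pik3ap1 (0.24 ± 0.06). Inpp5d encodes the inhibitory lipid phosphatase SHIP1, Cd22 an inhibitory co-receptor, Plcg2 a phospholipase and Pik3ap1 an adaptor of PI3 kinase. The 9 lower members included Cd72 and both signalling chains of the receptor, Cd79a (-0.17 ± 0.03) and Cd79b (-0.26 ± 0.03). The kinase gene Blk (-0.42 ± 0.05) was lower too, as was the inhibitory receptor gene Fcgr2b (-0.23 ± 0.05). Inhibitory members were thus found on both sides.

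Of 16 tested germinal centre identity genes 5 were higher and 3 lower. Gcsam, a signalling adaptor restricted to these cells, was at 179, 173, 225 and 234 CPM in IgG1 cells and at 108, 97.0, 164 and 183 CPM in IgM cells. It was higher in 4 of 4 libraries, by 0.54 ± 0.06 (SE, adjusted p = 5.88e-05), although the KO IgM value lay above the Day14 IgG1 values. Basp1 (0.38 ± 0.04), Mef2c (0.26 ± 0.04), S1pr2 and Mybl1 were the others. Rgs13, a brake on chemokine receptor signalling, was lower (-0.35 ± 0.08), as were Pax5 and Spib. Bcl6 itself differed by 0.10 ± 0.05 (adjusted p = 0.222).

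The shares of class switching and IL-4 genes that passed were near that of all genes (8.63%) or below it. Of 20 members of the switching list 1 passed, Parp1, a DNA break sensor gene that was higher by 0.33 ± 0.04. Of 11 tested IL-4 and STAT6 genes 1 passed, Mybl1 (0.16 ± 0.04). The count differed within experiments, with 5 of 11 higher and 0 lower in the Day14 libraries alone, and 3 higher and 3 lower of 14 in the chimaeras alone. More genes passed in those fits over all genes too. There 568 were higher and 734 lower in the Day14 libraries, and 506 and 783 in the chimaeras. Il4ra differed by 0.09 ± 0.05 (adjusted p = 0.347) and Stat6 by -0.02 ± 0.06 (adjusted p = 0.890).

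Of 9 tested T-bet programme genes 5 were lower and 1 higher, with Tbx21, the gene of T-bet itself, at -0.84 ± 0.14 (SE) and Fcrl5 at -1.98 ± 0.14. In the Day14 libraries alone 2 of the 9 were lower and 3 higher, beside 734 and 568 over all genes. In the chimaeras alone 6 were lower and 1 higher, beside 783 and 506 over all genes. The interferon gamma receptor genes differed in opposite directions, with Ifngr1 higher (0.38 ± 0.06) and Ifngr2 lower (-0.27 ± 0.07, lower in 3 of 4 libraries). Of 14 tested cytokine receptors 4 were lower and 1 higher, with the IL-10 receptor gene Il10ra at -1.15 ± 0.10 (SE, adjusted p = 2.66e-06). Of 14 tested plasma cell genes 2 were higher, Slpi and Edem1, and 4 were lower. The lower ones were the plasma cell regulators Irf4 (-1.06 ± 0.14) and Xbp1 (-0.30 ± 0.04), and Mzb1 and Sec11c of the secretory pathway. Chaperones of the endoplasmic reticulum followed with 5 lower and 1 higher of 12. Immunoglobulin UMIs were 0.721% to 1.03% of all UMIs in the IgG1 sums and 1.02% to 1.26% in the IgM sums.

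Light zone genes were split, with 2 of 14 higher (Lmo2 and Slamf1) and 4 lower (Egr3, Gpr183, Bcl2a1b and Cd83). Of 15 immediate early genes 5 were lower, including Nr4a1, a reporter of receptor stimulation (-1.27 ± 0.21), and Fos was higher (0.43 ± 0.06). Dark zone genes had 1 of 10 lower, Rgs13. None of 16 S phase genes passed (edgeR), and 1 of 18 G2/M genes did, Cenpe (0.17 ± 0.04). In the chimaeras alone 12 of the 18 G2/M genes were higher and 0 lower, beside 506 higher and 783 lower over all genes. In the Day14 libraries alone 1 was higher and 2 were lower, and without Day14 replicate 2 the count was 5 higher and 0 lower. Among MYC growth genes 1 of 16 was lower, Odc1, and no gene of glycolysis (12 tested) or of nuclear-encoded respiration (16 tested) passed. CD40 and NF-kB genes had 1 of 15 higher and 3 lower, interferon response genes 2 of 12 lower, MHC class II genes 1 of 10 higher (Ciita) and apoptosis genes 2 of 14 lower (Bcl2 and Bcl2a1b).

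**Figure D1:**
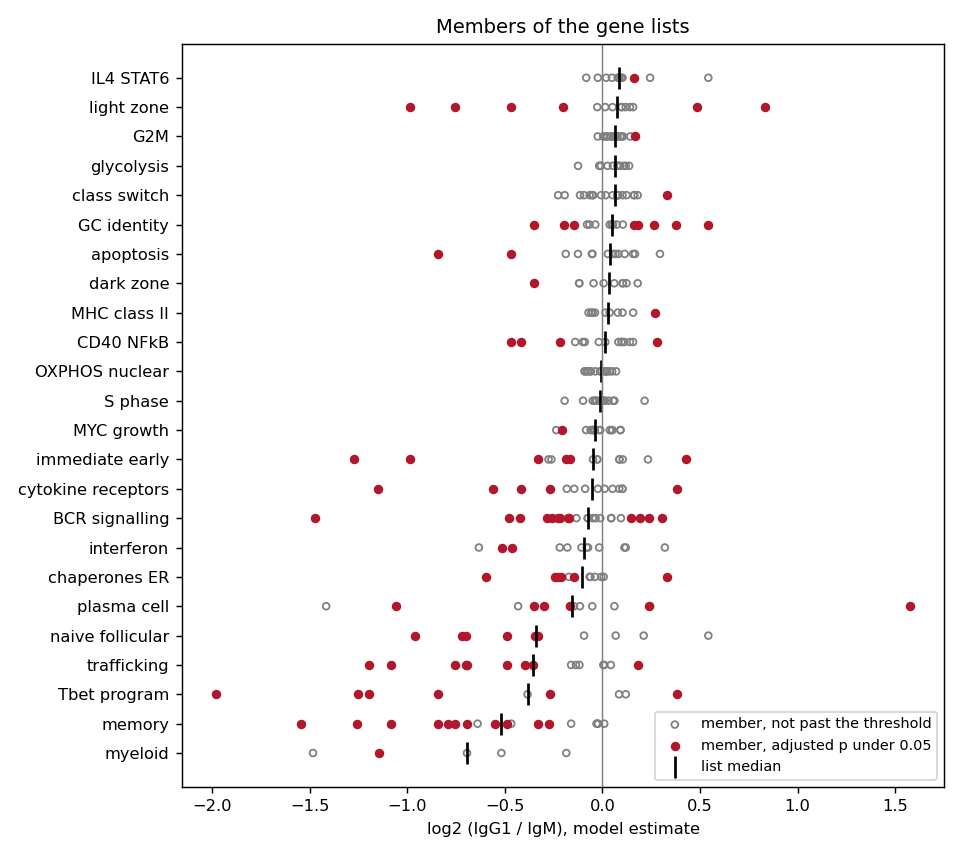
The x axis gives the fitted log2 ratio of IgG1 to IgM cells, and each row is a gene list with at least 5 tested members; filled points passed the test, open points did not, and black bars are list medians. The memory, T-bet, trafficking and naive follicular lists lie to the left, while S phase and respiration genes lie close to 0.

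The summed levels of T cell and of myeloid markers were lower in the IgG1 cells of each library. Only 2 of the 10 T cell markers had enough UMIs to be tested. The summed T cell markers (10 genes) were at 43.8 to 80.7 CPM in the IgG1 sums and at 59.1 to 137 CPM in the IgM sums. Most of that was Lck, a kinase gene at 41.8 to 78.5 CPM in IgG1 and 56.6 to 134 CPM in IgM cells (-0.63 ± 0.06), and Trbc1 was at 0 in all IgG1 sums. Myeloid markers (9 genes) were at 11.2 to 19.5 CPM against 19.2 to 25.6 CPM, with Tyrobp lower in IgG1 cells. Stromal markers were at most 1.88 CPM. Erythroid genes were at 86.4 to 153 CPM in the IgG1 and 54.9 to 152 CPM in the IgM sums, with Hbb-bt higher in IgG1 cells. Their part in the differences was not tested.

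The shares of several deposited clusters differed between IgG1 and IgM cells, and that of the memory-precursor-like clusters was lower among IgG1 cells in each library. Day14 cluster 6 and chimaera cluster 3 were memory-precursor-like, with 6 of 6 markers raised, among them Ccr6, Cd38, Gpr183, Hhex and Klf2, at median log2 ratios of 4.81 and 3.65 over the other cells. Cluster 6 held 3.75% of IgG1 cells and 6.89% of IgM cells in Day14 replicate 1, and 2.27% and 3.57% in Day14 replicate 2. Cluster 3 held 9.89% of IgG1 cells (exact 95% interval 8.46 to 11.5) and 19.6% of IgM cells (18.4 to 20.8) in Chimaera_control. In Chimaera_KO it held 7.83% (6.53 to 9.29) and 15.6% (14.5 to 16.8). Among the 4 libraries the intervals of this state overlapped only in Day14 replicate 2. Chimaera cluster 0, with 5 of 5 light zone markers raised, held 27.8% of IgG1 and 23.6% of IgM cells in the control and 30.0% and 22.9% in the KO library. Its direction is opposite to that of the light zone calls given below. The intervals were also apart for histone-rich cluster 4 in the control (13.7% of IgG1 and 8.46% of IgM cells). In the KO library they were apart for cluster 1, led by replication genes (16.7% and 19.9%), and for cluster 2, led by mitotic genes (21.53% and 17.97%). In Day14 replicate 1 they were apart for Day14 cluster 0 (29.3% and 25.1%), which was close to equal in replicate 2 (26.9% and 28.0%). In the remaining clusters the intervals overlapped. The clusters rest on genes that differ between the classes, so no test was made.

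Cell cycle and zone calls differed by a few points, with signs that varied between libraries. The share of cells called G2/M was 33.6%, 31.7%, 29.1% and 33.7% among IgG1 cells and 31.2%, 32.2%, 27.7% and 32.4% among IgM cells. The mean difference was 1.14 ± 1.19 percentage points (SD, n = 4, exact two-sided sign-flip permutation p = 0.25). With 4 libraries the smallest p of this test is 1 in 8. For G1 the mean difference was -1.42 ± 1.91 points (exact permutation p = 0.5) and for S it was 0.27 ± 1.31 (exact permutation p = 0.75).

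Light zone calls were 37.7%, 38.2%, 36.7% and 32.5% of IgG1 cells and 38.0%, 37.1%, 39.1% and 36.3% of IgM cells. The mean difference was -1.33 ± 2.18 points (exact permutation p = 0.375). It was -0.36 and 1.19 points in the Day14 libraries and -2.37 and -3.77 in the chimaeras. Dark zone calls differed by 1.06 ± 1.72 points (exact permutation p = 0.375). These are the authors' deposited calls, and 8 such shares were tested in all, none with an unadjusted p below 0.25. Under the stricter assignment the differences were -4.54 points for light zone, 5.74 for dark zone, -5.04 for G1 and 4.61 for G2/M. Those of the zones and G1 had the same sign in 4 of 4 libraries. That assignment kept only 101 to 204 IgG1 cells per library against 1132 to 1982 IgM cells, selected by their constant-region UMIs. The part of this selection in the larger differences was not tested.

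Differences in receptor use between IgG1 and IgM cells varied in size and sign between libraries. Ighv1-72, the heavy-chain gene of the canonical NP response, was the leading V gene in 37.2% of 822 IgG1 cells and 17.6% of 3252 IgM cells with a V call in Chimaera_control. In Chimaera_KO the shares were 28.9% and 17.2%. In Day14 replicate 2 they were 20.4% and 9.94%, whereas in Day14 replicate 1 IgG1 cells had 20.9% and IgM cells 24.5%. The mean difference was 9.55 ± 9.66 points (exact permutation p = 0.25), higher in 3 of 4 libraries. Only 134 and 103 Day14 IgG1 cells had a V call. Among Day14 replicate 2 IgM cells another V gene, Ighv3-6, led in 32.8% of 1389 cells with a call.

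Lambda light chains, which pair with Ighv1-72 in NP-binding antibodies, led in 38.1% and 30.7% of IgG1 cells and 25.6% and 17.2% of IgM cells in the Day14 libraries. In the chimaeras they led in 59.1% and 51.7% of IgG1 cells and 61.6% and 57.3% of IgM cells. The difference was thus 12.5 and 13.5 points in the Day14 libraries and -2.47 and -5.61 in the chimaeras (mean 4.49 ± 9.94, exact permutation p = 0.5).

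**Figure D2:**
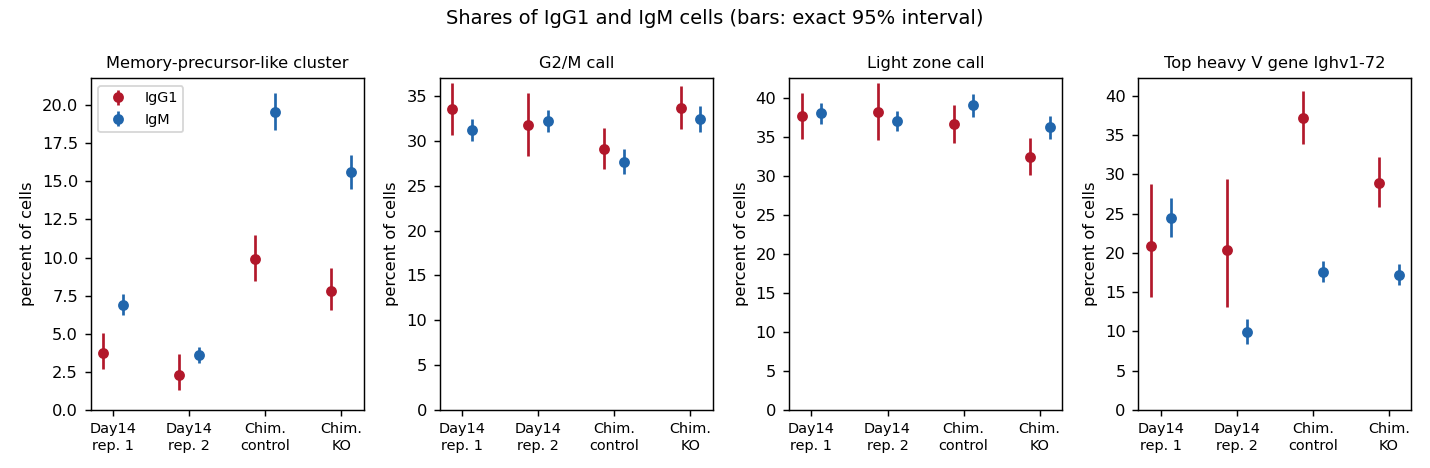
Each panel gives a percent of IgG1 (red) or IgM (blue) cells in the 4 libraries, with exact 95% intervals for counting error. The memory-precursor-like share is lower among IgG1 cells in each library, the G2/M and light zone shares differ by less than 4 points, and Ighv1-72 use is higher among IgG1 cells in 3 of 4 libraries.

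A second comparison set IgG1 cells against the 4723 other IgG cells, to see where IgG1 cells differ from other switched cells. It uses the same IgG1 cells as the first, so both share their error. In Day14 replicates 1 and 2, Chimaera_control and Chimaera_KO, 38.8%, 41.2%, 40.5% and 37.4% of IgG1 cells were called G1. For other IgG cells the shares were 33.1%, 32.6%, 36.5% and 31.7%. Light zone calls were 37.7%, 38.2%, 36.7% and 32.5% of IgG1 cells and 33.3%, 35.0%, 32.9% and 30.5% of other IgG cells. The part of these shares in the gene differences was not tested. Of 10076 genes tested 241 were higher in IgG1 cells (2.39%) and 280 were lower (2.78%), 5.17% in either direction. Fcer2a led the higher genes, at 113, 105, 132 and 206 CPM in IgG1 cells and 41.2, 41.9, 80.6 and 108 CPM in other IgG cells. Each library showed it, and the difference was 1.02 ± 0.07 (SE, adjusted p = 1.39e-11). Cr2, the complement receptor CD21, was higher by 0.84 ± 0.07, and Gsn, the actin-severing gelsolin gene, by 0.90 ± 0.07. The serpin gene Serpinb6b (0.98), the transcription coactivator gene Eya1 (0.94) and Adap1 (0.79) were also named.

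On the other side stood Chst1, a sulfotransferase gene, at 3.56, 12.2, 3.21 and 2.79 CPM in IgG1 cells and 23.3, 53.0, 14.9 and 6.32 CPM in other IgG cells (-2.10 ± 0.15, SE, adjusted p = 1.47e-11). Matk (-0.97), Rflna (-0.87), Rilpl2 (-0.81), Evc (-0.78) and Spn (-0.76), which encodes CD43, followed. Chst1 was among the leading genes of Day14 cluster 7, in which 1 of 706 IgG1 cells of Day14 replicate 2 lay. Without that cluster 239 genes were higher and 277 lower.

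Genes of both switch signals differed in both directions between the kinds of IgG cells. Of 11 tested IL-4 and STAT6 genes 3 were higher in IgG1 cells, Fcer2a, Il4ra (0.51 ± 0.06, SE) and Il4i1 (0.19 ± 0.05), and 2 were lower, Batf and Socs1. Of 8 tested T-bet programme genes 4 were lower and 2 higher, with Tbx21 at -1.57 ± 0.18. Tbx21 averaged 3.67 ± 1.19 CPM (SD, n = 4) in IgG1 and 11.8 ± 3.41 CPM in other IgG cells. MHC class II genes, which present antigen to T cells, were higher in 7 of 10 cases with 0 lower, at a median of 0.14.

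Slpi was higher in IgG1 cells here too (0.70 ± 0.06), and Cd38 (-0.76) and Cd72 (-0.73) were lower in each library. Plac8 was lower in the fit (-1.31), but not in each library. Its IgG1 and other IgG levels were close in Day14 replicates 1 (12.2 and 11.3 CPM) and 2 (5.40 and 6.31 CPM). They were at 41.0 and 105 CPM in Chimaera_control and at 31.1 and 93.1 CPM in Chimaera_KO. Of 17 tested memory-associated genes 6 were lower and 0 higher. Among the lower ones, Klf2 was higher in the IgG1 cells of Day14 replicate 1 (33.4 and 18.3 CPM). S phase and G2/M genes had 2 of 16 and 3 of 18 lower and 0 higher. With those that did not pass, 16 of 16 and 17 of 18 had a fitted difference below 0, at medians of -0.10 and -0.08. MYC growth genes had 3 of 16 lower and 0 higher, with 16 below 0. Of 12 glycolysis genes 4 were lower and 0 higher.

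**Figure D3:**
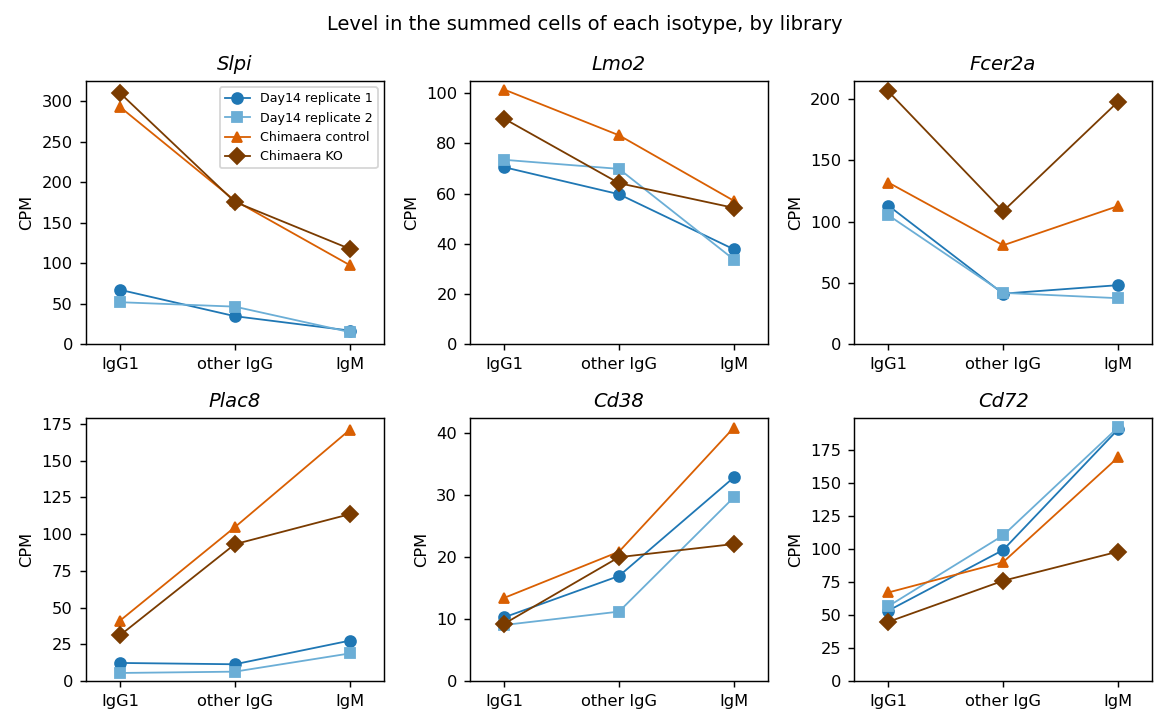
The y axis gives the level in CPM in the summed IgG1, other IgG and IgM cells, with 1 line per library. In each library Slpi and Lmo2 are highest in IgG1 and lowest in IgM cells, with the opposite order for Cd38 and Cd72, while Fcer2a is lowest in other IgG cells in 3 libraries and in IgM cells of Day14 replicate 2.

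A further comparison asked whether the IgG1 to IgM difference itself differed between the chimaeras and the Day14 mice. Of 11199 genes 244 had a more positive difference in the chimaeras (2.18%) and 145 a more negative one (1.29%), 3.47% in either direction. Log2 ratios per library below have 1 CPM added to both levels. The experiments also differ in host, irradiation and depth, which cannot be told apart here.

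For Fcer2a, IgG1 and IgM cells were at 113 and 48.1 CPM in Day14 replicate 1 and at 105 and 37.5 CPM in replicate 2. In Chimaera_control they were at 132 and 113 CPM, and in Chimaera_KO at 206 and 198 CPM. The mean log2 ratio was 1.34 over the Day14 libraries and 0.14 over the chimaeras, a fitted change of -1.22 ± 0.08 (SE, adjusted p = 7.50e-16). Over all 4 libraries Fcer2a did not pass (0.54 ± 0.16, adjusted p = 0.0511), although it was higher in each. Il4i1 took a similar course, at 90.4 and 67.4, 112 and 64.7, 120 and 141, and 161 and 200 CPM in IgG1 and IgM cells. It was higher in the IgG1 cells of the Day14 libraries and lower in those of the chimaeras. Of 11 IL-4 and STAT6 genes 3 changed, Fcer2a, Il4i1 and Il2rg, each towards a more negative difference in the chimaeras. Of 18 G2/M genes 5 changed, each towards a more positive one.

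Nrgn and Parm1 kept their direction with a smaller size in the chimaeras. Their mean log2 ratios were 2.48 and 2.58 in the Day14 libraries and 1.14 and 1.13 in the chimaeras. Runx3, a transcription factor gene, turned around, from 0.75 to -0.40. Cdk14 was lower in Day14 IgG1 cells (-1.54) and close to equal in the chimaeras (-0.03), and so was the lipase gene Mgll (-1.48 and -0.07). S100a6 was at 1.78 and 8.26, and 1.44 and 5.43 CPM in IgG1 and IgM cells of the Day14 libraries. In the chimaeras it was at 78.8 and 76.3, and 37.4 and 55.5 CPM, so its level and its contrast both differed.

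**Figure D4:**
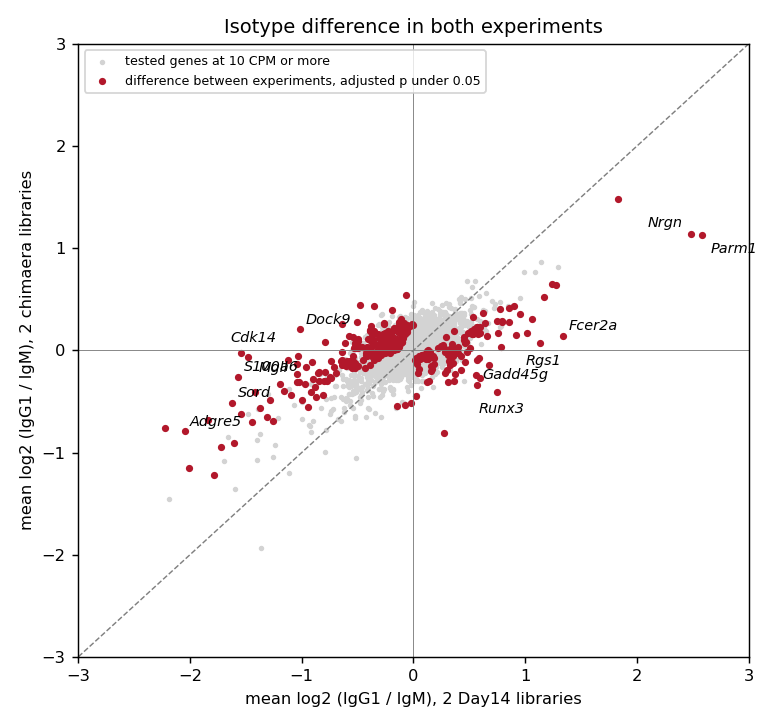
The x axis gives the mean log2 ratio of IgG1 to IgM cells over the 2 Day14 libraries and the y axis that over the 2 chimaera libraries, for tested genes with a mean of at least 10 CPM; red points passed the test of the difference between experiments. Fcer2a lies at 1.34 and 0.14, and Parm1 and Nrgn lie above 2 on the x axis and near 1.1 on the y axis.

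KO and control chimaeras had 1 library each, so their isotypes were described side by side with no test. Fcer2a was higher in the KO library in both classes, by 0.64 on the log2 scale in IgG1 cells (exact 95% interval 0.55 to 0.74) and by 0.81 in IgM cells (0.76 to 0.87). These intervals cover counting error only. Il4i1 was higher by 0.42 (0.32 to 0.53) in IgG1 and 0.50 (0.45 to 0.55) in IgM cells, and Socs1, an inhibitor of cytokine signalling induced by IL-4, by 0.61 (0.45 to 0.78) and 0.74 (0.65 to 0.84). Nfil3 was higher by 1.47 (0.86 to 2.11) and 1.90 (1.52 to 2.31). Some members did not show the same in both classes. Il4ra differed by 0.07 in IgG1 cells (-0.08 to 0.22) and by 0.22 in IgM cells (0.13 to 0.30), and Batf by -0.06 (-0.26 to 0.13) and -0.33 (-0.44 to -0.21). Mybl1 differed by -0.27 (-0.43 to -0.11) in IgG1 and -0.07 (-0.17 to 0.03) in IgM cells. Whether the classes differ here was not tested. Il2rg and Jak3, which encode the common receptor chain and its kinase, were lower in both classes.

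Other genes were picked because their KO difference was known beforehand, from earlier results of these data. Samsn1 was higher in the KO library by 1.20 in IgG1 and 1.36 in IgM cells, and Gadd45g by 1.74 and 2.38. S100a10 was lower by 2.02 on the log2 scale in IgG1 cells, from 89.9 to 22.1 CPM, and in IgM cells it went from 92.8 to 30.9 CPM. Cd72 was at 67.0 and 44.7 CPM in control and KO IgG1 cells and at 169 and 97.9 CPM in IgM cells. Each of these picked genes differed in 1 direction in both classes, which their choice largely fixed. The IgG1 to IgM order of Cd72 was the same in both libraries, as the naming rule required.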

How the data were processed

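UMI counts per gene and cell were deposited by the authors as raw counts, and per the submitters' processing notes Cell Ranger, Seurat and mm10 were used, without versions. Cluster, phase and zone calls (LZ, DZ, unknown) are the authors' deposited cell tables, and how they were made is not given in the sources used here. The 1 other column, of receptor barcodes, was not used. Coordinates are from GENCODE M21 on GRCm38, the assembly of mm10. Members, gene lists (27) and alternatives were chosen with earlier results of these data known.

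Counts of the 15494 non-immunoglobulin genes listed in both tables were summed per library and isotype (8 sums of 2775572 to 36135340 UMIs). They were tested with edgeR 4.0.16 (R 4.3.3; filterByExpr, TMM, quasi-likelihood), with library as block because both sums of a library come from the same droplet run. Fold changes are model estimates, and SEs were derived from the F statistic. Alternatives used DESeq2 1.42.0 and limma 3.58.1. On simulated counts for IgG1 against IgM (11199 genes), 89% of genes changed by a log2 of 0.5 and 100% of those changed by 1 were recovered, with 17 false calls. The changed genes were drawn from the better counted genes, with the same change in every library. Recovery of low genes, or of differences that vary between experiments, was not measured.

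Named genes were the 12 largest differences in each direction (6 in the other comparisons) among genes with adjusted p under 0.05, the same sign in every library (between experiments, both chimaera values on 1 side of both Day14 values) and a mean of at least 10 CPM. Immunoglobulin, mitochondrial, ribosomal and predicted genes were left out, and members of each list were added. Clusters were named by fixed markers. No doublet caller was run; the stricter assignment was an alternative. The alternative with the same cluster weights in both classes weighted each cluster by its share of the library's IgG1 and IgM cells together. Clusters with fewer than 5 cells of either class were left out there. Its variance trend was at first fitted on the wrong covariate and was corrected after the calls were seen. Intervals are exact Clopper-Pearson or conditional binomial intervals. Some members of the lists are not reported here by name.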

Additional observations from a re-analysis of the deposited data

Results flagged for a closer look

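In 21 named genes the IgG1 to IgM difference itself differed between the chimaeras and the Day14 libraries (edgeR interaction, adjusted p under 0.05), given here as chimaera minus Day14 on the log2 scale with its SE. It was more positive in the chimaeras for S100a6 (1.88 ± 0.43), Cdk14 (1.49 ± 0.18), Mgll (1.41 ± 0.22), Dock9 (1.29 ± 0.20), Adgre5 (1.16 ± 0.27) and Sord (1.15 ± 0.23). It was more negative for Parm1 (-1.63 ± 0.15), Nrgn (-1.44 ± 0.19), Runx3 (-1.24 ± 0.19), Fcer2a (-1.22 ± 0.08), Rgs1 (-1.18 ± 0.24) and Gadd45g (-1.17 ± 0.25).

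Among the genes named for IgG1 against IgM, the higher genes Slpi (-0.45 ± 0.10), Adap1 (-0.65 ± 0.20) and Irak1bp1 (-0.67 ± 0.16) had a smaller difference in the chimaeras. The lower genes Arhgap24 (0.77 ± 0.22), Cd72 (0.53 ± 0.09), Ptprj (0.65 ± 0.16), Lmo4 (0.72 ± 0.10), Evc (0.87 ± 0.25) and Hes5 (1.04 ± 0.24) were also less different there. Ighg1 UMIs in IgM cells were more frequent in the chimaeras, at 29.8% and 35.9% of cells against 8.92% and 4.71%, and their part in these smaller differences was not tested. S100a6 did not pass without Day14 replicate 1 (adjusted p = 0.111), nor Sord, Rgs1 or Gadd45g without Chimaera_KO (adjusted p = 0.142, 0.260 and 0.417). Adgre5 did not pass without Day14 replicate 2 or without Chimaera_control (adjusted p = 0.130 and 0.168).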

How the results depend on the processing

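The count of genes higher and lower in IgG1 than IgM cells (355 and 612) was 214 and 327 by DESeq2. It was 168 and 286 with the stricter assignment and 171 and 298 with each cell thinned to 1000 UMIs. In light zone cells it was 211 and 345, and with the same cluster weights in both classes 312 and 361. Leaving out 1 library gave 189 to 322 and 378 to 512, with the lowest counts without Day14 replicate 1 (189 and 379) and without Chimaera_control (200 and 378). With no replicate block 0 and 0 passed (edgeR; 102 and 240 at an unadjusted p under 0.05). The split was 431 and 525 with library sizes over all genes, and 568 higher genes passed in the Day14 libraries alone. Against other IgG (241 and 280), DESeq2 gave 55 and 79, no replicate block 0 and 0 (edgeR; 58 and 72 unadjusted), and leaving out 1 library 107 to 232 and 157 to 218, lowest without Chimaera_KO; without Day14 replicate 2 it was 121 and 181, and without Day14 replicate 1 155 were higher. Between experiments (244 and 145), DESeq2 gave 41 and 54 among the 2514 genes it gave an adjusted p, no filter 401 higher genes, no replicate block 1 and 1, and leaving out 1 library 58 to 220 and 55 to 109, lowest without Chimaera_KO; it was 80 and 80 without Chimaera_control and 150 higher without Day14 replicate 2. No named gene changed direction in the settings it was fitted in, but 11 of the 12 genes named between experiments had no adjusted p from DESeq2 and were not compared there. Among the gene comparisons, the stricter, thinned, G1, zone, same-cluster-weight and all-gene library size settings were run for IgG1 against IgM only. Of the genes named for IgG1 against IgM, Emp2 and Sh3bgrl2 did not pass in light zone cells, Sh3bgrl2 and Plpp1 with the stricter assignment, and Atp11a and Plpp1 after thinning. The S phase share reversed without Chimaera_control (-0.12 points, leave-one-out range -0.12 to 0.88), and the unknown zone share under the stricter assignment (-1.20 points); the cause was not tested. Leave-one-out ranges of the other share differences were -1.97 to -0.80 points for G1, 0.74 to 1.69 for G2/M, -2.17 to -0.51 for light zone, 0.44 to 1.74 for dark zone, 6.19 to 13.9 for Ighv1-72 and 1.49 to 7.86 for lambda. 5 settings were added after the data were seen: without the memory-precursor-like clusters (283 and 444), each experiment alone, without Day14 cluster 7, and leaving out a library between experiments.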
